A study of Mus musculus with 45 samples.

Results

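The enzymes that make and break down polyamines were followed in mouse bone marrow-derived macrophages. The 9 genes were Odc1, Azin1, Oaz1, Oaz2, Amd1, Srm, Sms, Sat1 and Smox, taken by symbol from the deposited expression table and by Ensembl identifier from the count table, which lists 29307 genes. All 9 had enough reads to be tested, among 12905 genes in all. Marrow of C57BL/6N mice aged 6-10 weeks was cultured for 6 days into macrophages and polarized for 24 h. M0 cells received no stimulus, M1 cells received 50 ng/mL IFN-γ with 20 ng/mL LPS, and M2 cells received 20 ng/mL IL-4. The mice carried engineered Famin alleles that encode human FAMIN variants, namely Famin p.254I (non-risk), Famin p.254V (risk) and Famin p.284R (monogenic disease), and no group with the unaltered mouse allele was analysed here. Each of the 9 groups held 5 libraries of stranded mRNA read as single 50-base reads, and the M0, M1 and M2 libraries that share a genotype and a number in their titles were read as 3 cultures from 1 mouse, which gives 15 mice.

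Putrescine, spermidine and spermine are small positively charged amines that bind nucleic acids and are needed for growth. Ornithine decarboxylase (Odc1) makes putrescine from ornithine, which arginase supplies, and Srm and Sms then add aminopropyl groups, donated by decarboxylated S-adenosylmethionine from Amd1, to give spermidine and spermine. Antizymes (Oaz1, Oaz2) bind ornithine decarboxylase and send it to the proteasome, and antizyme inhibitor (Azin1) binds the antizymes. Sat1 acetylates spermidine and spermine for export or oxidation, and Smox oxidizes spermine back to spermidine. Macrophages given IL-4 are known for arginase 1, and spermidine is the substrate for hypusine, a modified lysine found in the translation factor eIF5A.

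Library totals ranged from 17239009 to 43740283 counts with a median of 27553642. Values are given as CPM, reads of a gene scaled to a common library size after trimmed mean of M values (TMM) normalization. The macrophage marker list (Adgre1, Csf1r, Itgam, Cd68, Mertk, Fcgr1) summed to between 5432 and 11008 CPM in every library, and the T cell list (Cd3e, Cd3d, Cd3g, Trac) to at most 0.270 CPM. M1 markers were highest in M1 libraries, with Il12b near 0 in all of them, and M2 markers were highest in M2 libraries. Other lists moved with polarization. Dividing-cell markers had a median summed level of 335 CPM in M0, 206 CPM in M1 and 166 CPM in M2, the neutrophil list of 51.7, 45.1 and 23.7 CPM, the stromal list of 33.0, 11.2 and 17.6 CPM, and the dendritic cell list of 1.18, 303 and 8.39 CPM. The dendritic cell sum in M1 was mostly 1 gene, Clec9a (median 294 CPM), with Xcr1 at 8.17 CPM. Zbtb46 of that list went the other way, at 0.578, 0.316 and 7.34 CPM in M0, M1 and M2, and Flt3 had 0.163 CPM in M1. The part of these lists in the results was not tested. In bulk RNA, a change in the number of cells of a type and a change in RNA per cell cannot be told apart. The M1 library of Famin p.254I replicate 5 stood apart by M2 genes, with 49.1 CPM of Retnla where the other 14 M1 libraries held at most 0.249 CPM. Without that mouse 8 of the 9 members were still called between M1 and M0. Counts hold no base calls, so the alleles could not be checked.

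In M2 the genes of all 4 enzymes that build polyamines were higher than in M0, and Smox, the spermine oxidase gene, was lower. In M1 both aminopropyltransferase genes, both breakdown genes, Azin1 and Oaz2 were lower than in M0. Against M0, 4 members rose in M2 (Odc1, Amd1, Srm, Sms), 2 fell (Oaz2, Smox) and 3 did not pass the test (edgeR quasi-likelihood test, Benjamini-Hochberg adjusted p under 0.05). Over all genes tested, 76.4% were called in that comparison, 36.8% higher and 39.6% lower. In M1 against M0, 2 members rose (Odc1, Amd1), 6 fell (Azin1, Oaz2, Srm, Sms, Sat1, Smox) and Oaz1 did not pass, where 77.3% of all genes were called, 37.0% higher and 40.3% lower. Directly between M1 and M2, 1 member was higher in M1 (Smox), 7 were lower and Oaz1 did not pass, beside 79.1% of all genes (39.0% higher and 40.1% lower). The share of members called was thus near that of all genes, and the count of members says nothing particular about polyamine genes. The median log2 fold change of the members was -0.41 in M1 and -0.03 in M2 against M0, beside -0.027 and -0.025 over all genes tested. The comparisons with M0 share the M0 libraries. p-values measure the spread between these libraries, which the fit took as independent. Cultures of 1 mouse, and mice that share a replicate number, partly deviated together. Between polarizations, the p-values, intervals and counts of 15 mice thus rest on fewer independent units than they appear to. Each replicate number is present in every genotype. Between genotypes, the fit without a block counted the deviation shared by a number as error, which can raise p-values.

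**Figure D1:**
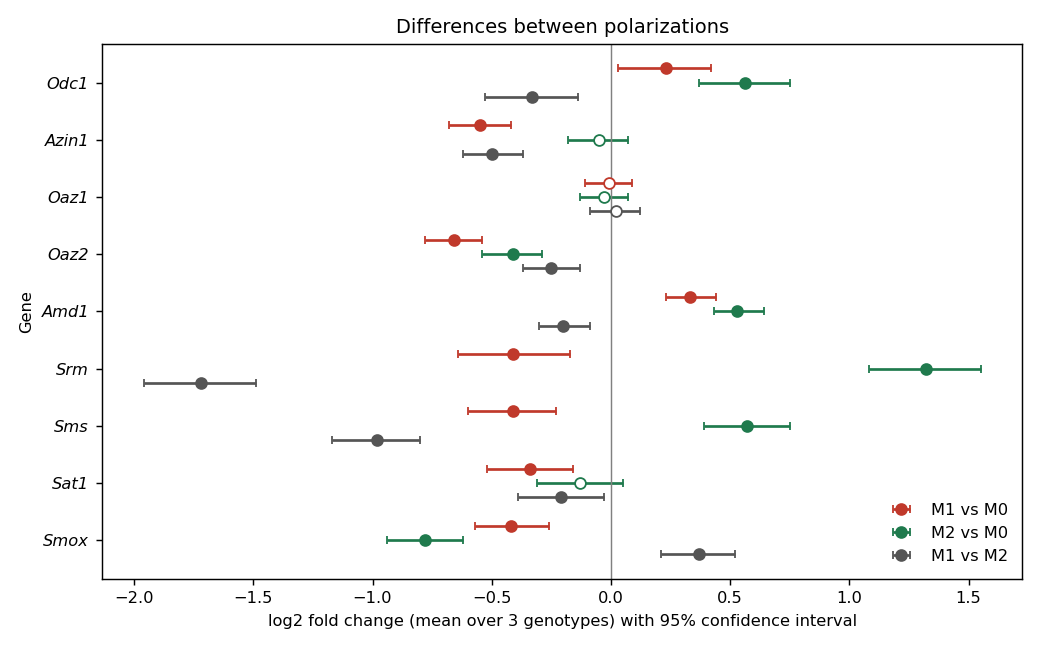
Log2 fold change (horizontal axis) of each polyamine gene between polarizations, as the mean over 3 genotypes, with 95% confidence intervals. Filled points passed an adjusted p of 0.05 and open points did not. Srm shows the widest separation, 1.32 in M2 against M0 and -1.72 in M1 against M2, and Oaz1 lies on 0 in all 3.

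Promoter sequence is shown for Odc1, Amd1 and Sms, 3 of the 4 members that rose in M2, so that the bases upstream of them can be compared. In M1, Odc1 and Amd1 rose and Sms fell. RefSeq windows (GRCm38.p6) were given for 7 of the 9 members and not for Azin1 or Srm. Capitals mark the GC box (GGGCGG, either strand), a binding motif of SP1, and the E-box (CACGTG, which reads the same on either strand), a binding motif of MYC and USF. The stretches are chr12:17544623-17544793 on the plus strand for Odc1, chr10:40302189-40302438 on the minus strand for Amd1 and chrX:157492288-157492537 on the minus strand for Sms. The Odc1 and Sms stretches end at the base before the annotated gene, and the Amd1 stretch stops 2 bases short of it.
Odc1: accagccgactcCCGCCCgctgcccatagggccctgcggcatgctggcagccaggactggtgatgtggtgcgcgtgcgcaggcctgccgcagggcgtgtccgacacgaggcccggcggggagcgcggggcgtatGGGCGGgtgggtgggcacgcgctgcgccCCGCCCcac
Amd1: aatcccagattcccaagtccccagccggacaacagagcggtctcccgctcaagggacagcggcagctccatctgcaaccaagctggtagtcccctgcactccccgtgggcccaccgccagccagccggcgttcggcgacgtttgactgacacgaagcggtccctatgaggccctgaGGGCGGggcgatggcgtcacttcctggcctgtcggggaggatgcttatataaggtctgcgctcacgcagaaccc
Sms: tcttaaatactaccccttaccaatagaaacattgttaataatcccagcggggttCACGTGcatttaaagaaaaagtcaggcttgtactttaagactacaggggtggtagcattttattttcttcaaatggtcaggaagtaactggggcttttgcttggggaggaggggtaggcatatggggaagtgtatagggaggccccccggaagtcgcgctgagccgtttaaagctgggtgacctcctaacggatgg
The Odc1 stretch holds 3 GC boxes with 77.2% G and C, the Amd1 stretch 1 GC box with 64.4%, and the Sms stretch 1 E-box and no GC box with 47.2%. The Odc1 stretch is cut to 171 bases because its RefSeq start lies inside the gene as annotated here. Its whole RefSeq window holds 4 GC boxes. RefSeq gives Sms another start, inside the gene as annotated here, whose window holds 4 GC boxes and no E-box and is not printed. Of all 32851 RefSeq windows, each reaching from 250 bases before a gene start to 50 after it, 7.15% hold the E-box and 35.7% the GC box. The windows of Smox and Oaz2, which fell in M2, hold 6 and 4 GC boxes. Those of Sat1 and Oaz1, not called there, hold 2 and 0. A link of either motif to the differences was not tested. The letters of a STAT6 element (TTC and GAA with 4 bases between them) were found in no window of the 7 members. They stand in 6.95% of all windows.

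Odc1 (ENSMUSG00000011179, mm10 chr12:17544794-17551505, plus strand) codes for the enzyme that commits ornithine to putrescine. Its level ran from 19.3 to 34.3 CPM in the 15 M0 libraries (median 26.2), from 24.2 to 39.9 CPM in M1 (median 31.0) and from 31.3 to 55.6 CPM in M2 (median 36.1). The 3 ranges overlap, and the upper end of M2 is made by replicate number 2, at 52.8 CPM (Famin p.254I), 51.7 CPM (Famin p.254V) and 55.6 CPM (Famin p.284R). Odc1 rose in M2 by 0.56 ± 0.10 (log2, SE), or 1.48-fold, with an adjusted p of 1.7e-06 (edgeR), and was higher than M0 in 13 of 15 mice. In M1 it rose by 0.23 ± 0.10 (adjusted p = 0.03, edgeR), in 11 of 15 mice. This M1 call was lost without the mouse Famin p.254I replicate 3 (adjusted p = 0.06), Famin p.254V replicate 2 (0.052) or Famin p.284R replicate 2 (0.051), and leaving out replicate number 2 in all genotypes brought the difference to 0.15 (adjusted p = 0.13, edgeR). It was also lost without replicate number 1 (0.064) or 3 (0.06). Between M1 and M2, Odc1 was lower in M1 by 0.33 ± 0.10 (adjusted p = 0.0017), in 15 of 15 mice. Of the 50-base runs in its coding transcripts, 42.2% also occur in transcripts of other genes, so its count is uncertain to the extent that such reads were placed there.

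**Figure D2:**
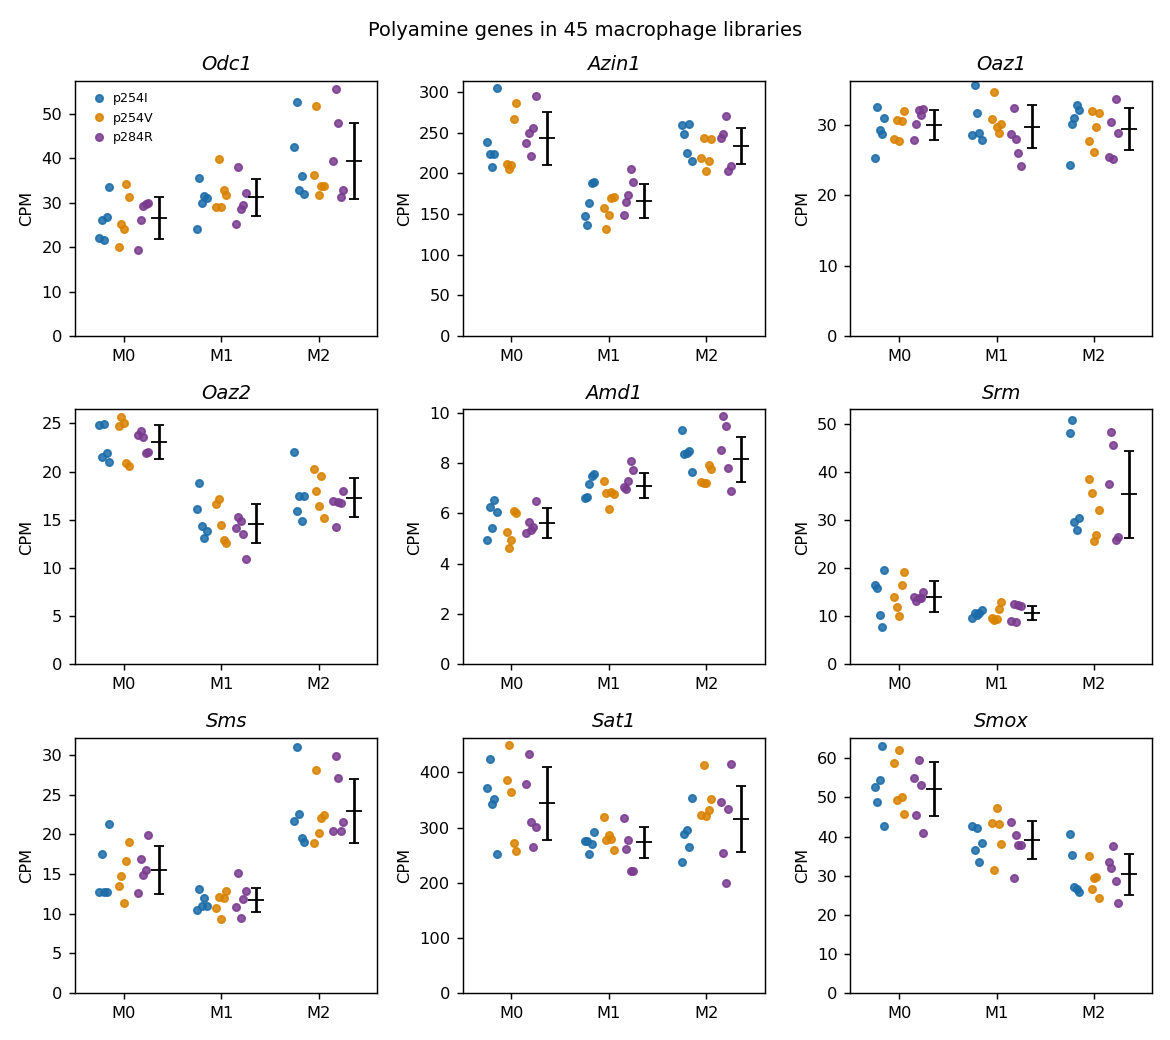
CPM (vertical axes, from 0) of the 9 genes in M0, M1 and M2, with 1 point for each library, coloured by Famin genotype, and the mean ± SD of 15 libraries in black. Srm in M2 (25.7 to 50.8 CPM) lies above all M0 (up to 19.6 CPM) and M1 (up to 12.9 CPM) libraries, and the genotypes intermix in every panel.

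The regulators of ornithine decarboxylase did not move together. Azin1 (ENSMUSG00000037458, chr15:38487427-38519266, minus strand), which protects the enzyme by binding antizyme, had a median of 237 CPM in M0 (205 to 305), 165 CPM in M1 (132 to 206) and 242 CPM in M2 (203 to 271). M1 libraries were low, and only their upper end reached the M0 range. Azin1 fell in M1 by 0.55 ± 0.06 (adjusted p = 2.7e-10, edgeR), in 15 of 15 mice, and in M2 its difference from M0 was -0.05 with a 95% interval of -0.18 to 0.07. Between M1 and M2 it was lower in M1 by 0.50 ± 0.06 (adjusted p = 2.8e-09, edgeR), in 14 of 15 mice. The gene overlaps Gm49077 on the opposite strand, which is not among the genes counted. Of the coding 50-base runs of Azin1, 6.01% also occur in Gm49077. Without knowing whether strand was used in counting, reads from these runs cannot be told apart. Oaz2 (ENSMUSG00000040652, chr9:65668001-65690300, plus strand), an antizyme, ran from 20.6 to 25.7 CPM in M0, from 10.9 to 18.8 CPM in M1 and from 14.3 to 22.0 CPM in M2. No M1 library reached the M0 range, the case for 28.6% of all genes tested. It fell in M1 by 0.66 ± 0.06 (adjusted p = 6.2e-13) and in M2 by 0.41 ± 0.06 (7.5e-08, edgeR), in 15 of 15 mice each, and was 0.25 lower in M1 than in M2 (adjusted p = 0.00033).

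Oaz1 (ENSMUSG00000035242, chr10:80826656-80829290, plus strand), the broadly expressed antizyme, was called in none of the 3 comparisons between polarizations. Its medians were 30.5 CPM in M0 (25.2 to 32.5), 28.8 CPM in M1 (24.1 to 35.6) and 30.1 CPM in M2 (24.3 to 33.6). The difference from M0 was -0.01 in M1 (95% interval -0.11 to 0.09, adjusted p = 0.83) and -0.03 in M2 (-0.13 to 0.07, adjusted p = 0.62, edgeR), and that between M1 and M2 was 0.02 (-0.09 to 0.12). Its value is uncertain, because 45.53% of the 50-base runs of its coding transcripts are shared, nearly all with the pseudogene Oaz1-ps, which itself had 1.28 to 1.42 CPM as medians. Antizyme is also set by a translational frameshift that polyamines promote, which mRNA counts do not measure.

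Amd1 (ENSMUSG00000075232, chr10:40287458-40302186, minus strand) codes for the decarboxylase that provides the aminopropyl donor, and the Amd1 stretch above lies just upstream of it. It was the lowest member per length in M0 and M2, at a median of 5.48 CPM in M0 (4.63 to 6.53), 7.05 CPM in M1 (6.16 to 8.10) and 7.93 CPM in M2 (6.89 to 9.87). All M2 libraries were above all M0 libraries (no overlap, in either direction, for 23.4% of genes tested), and the M1 median lay between theirs. The rise was 0.53 ± 0.05 in M2 (adjusted p = 4.9e-12) and 0.33 ± 0.05 in M1 (2.8e-07, edgeR), each in 15 of 15 mice, and M1 was 0.20 below M2 (a log2 difference of -0.20, adjusted p = 0.00064). This gene is the least certain of the 9: 86.0% of the 50-base runs of its coding transcripts occur in other genes, mostly Amd2, which was not analysed here, and how reads with several matches were counted is not given in the sources used here.

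Srm and Sms, the aminopropyltransferases, moved in opposite directions in M1 and M2. Srm (ENSMUSG00000006442, chr4:148591503-148594993, plus strand), which makes spermidine, ran from 7.86 to 19.6 CPM in M0 (median 14.1), from 8.86 to 12.9 CPM in M1 (median 10.6) and from 25.7 to 50.8 CPM in M2 (median 32.1). Every M2 library exceeded every M0 and M1 library. Among all genes tested, 23.4% did not overlap between M2 and M0 and 35.7% between M1 and M2, in either direction. Srm rose in M2 by 1.32 ± 0.11, or 2.49-fold (adjusted p = 2.9e-13, edgeR), in 15 of 15 mice, and fell in M1 by 0.41 ± 0.12 (adjusted p = 0.0018), in 14 of 15 mice. M1 and M2 were 3.30-fold apart (log2 -1.72 ± 0.12, adjusted p = 7.4e-17). Only 2.4% of its coding 50-base runs are shared with another gene.

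Sms (ENSMUSG00000071708, chrX:157443855-157492287, minus strand), which makes spermine, had a median of 14.9 CPM in M0 (11.4 to 21.3), 11.9 CPM in M1 (9.36 to 15.1) and 21.7 CPM in M2 (18.9 to 31.1). The M1 and M2 libraries did not overlap, which holds for 35.7% of genes tested, and M0 overlapped both. It rose in M2 by 0.57 ± 0.09 (adjusted p = 3.3e-07), in 14 of 15 mice, and fell in M1 by 0.41 ± 0.09 (8.5e-05, edgeR), in 15 of 15 mice. M1 was 1.98-fold below M2 (log2 -0.98 ± 0.09, adjusted p = 6.1e-13). Its coding transcripts share 28.07% of their 50-base runs with other genes, mainly the pseudogene Sms-ps.

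The breakdown enzymes Sat1 and Smox were both lower in M1, and only Smox was called in M2. Smox (ENSMUSG00000027333, chr2:131491496-131525922, plus strand) ran from 40.8 to 63.2 CPM in M0 (median 52.7), from 29.3 to 47.3 CPM in M1 (median 38.3) and from 23.1 to 40.6 CPM in M2 (median 29.3). The highest M2 library was just under the lowest M0 library, and 23.4% of genes tested did not overlap between M2 and M0. Smox fell in M2 by 0.78 ± 0.08 (adjusted p = 1.1e-11) and in M1 by 0.42 ± 0.08 (7.2e-06, edgeR), in 15 of 15 mice each, and was 0.37 ± 0.08 higher in M1 than in M2 (adjusted p = 5.8e-05). None of its 50-base runs is shared.

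Sat1 (ENSMUSG00000025283, chrX:155213132-155216449, minus strand) had the highest CPM of the members, with a median of 351 CPM in M0 (252 to 450), 276 CPM in M1 (221 to 319) and 323 CPM in M2 (200 to 415). M0 and M2 covered nearly the same wide range, and M1 lay in its lower part. Sat1 fell in M1 by 0.34 ± 0.09 (adjusted p = 0.00082, edgeR), in 12 of 15 mice, and by 0.22 (adjusted p = 0.038) without replicate number 2. Its M2 difference from M0 was -0.13 (95% interval -0.31 to 0.05, adjusted p = 0.18), and was called without replicate number 5, at -0.27 (adjusted p = 0.0076, edgeR). The difference of -0.21 between M1 and M2 (adjusted p = 0.033) was not called without low-count filtering (-0.19, 0.061) or without any of the mice Famin p.254I replicate 3 (0.056), Famin p.254V replicate 2 (0.076), Famin p.284R replicate 4 (0.063) and Famin p.284R replicate 5 (0.14, all edgeR adjusted p). It was -0.12 without replicate number 5 (adjusted p = 0.22), and was not called without number 2 (0.076) or 4 (0.096).

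Compared per length, as CPM per kilobase of exon, Sat1 was the most abundant member in all 3 polarizations (medians 127, 99.6 and 116 in M0, M1 and M2) and Azin1 the second (38.0, 26.4 and 38.7), with no overlap between them or with the next gene. In M0, Smox, Oaz1, Srm, Oaz2 and Odc1 followed from 13.5 down to 7.69, with ranges that overlapped from each gene to the next. In M2, Srm took the third place, at 16.1 to 31.8 CPM per kilobase, and overlapped neither Azin1 nor Oaz1 (11.8). Sms and Amd1 were the lowest in every polarization, at 2.49 and 1.55 in M0, 1.98 and 1.99 in M1, where they overlapped, and 3.61 and 2.24 in M2. The order is that of reads as counted. Of the coding 50-base runs, 86.0% of Amd1, 45.53% of Oaz1, 42.2% of Odc1 and 28.07% of Sms occur in other genes. How such reads were counted is not known, so the places of these genes are uncertain.

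Replicate number, whose meaning the labels do not give, moved the IL-4 response of several members. In a fit with a term for replicate number and its interaction with polarization, added after the data were seen, the M2 difference from M0 varied with the number for 4 of the 9 members (Odc1, Azin1, Sms, Sat1), beside 15.6% of all genes. The M1 difference varied for 2 (Odc1, Oaz1), beside 20.3%. For Odc1 the mean M2 difference over the 3 mice of a number was 0.94 in number 1, 1.04 in number 2, 0.57 in number 3, 0.16 in number 4 and 0.06 in number 5 (adjusted p = 5.9e-05, edgeR). The 3 genotypes gave 1.02 to 1.08 in number 2 and -0.07 to 0.13 in number 5. Sms ran from 0.06 in number 5 to 0.86 in number 2 (adjusted p = 0.0018), Azin1 from -0.42 in number 5 to 0.13 in number 2 (0.011), and Sat1 from -0.48 in number 2 to 0.47 in number 5 (0.012, edgeR). For Sat1 the direction was opposite between these numbers, with 0 of 3 mice higher in M2 in number 2 and 3 of 3 in number 5.

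**Figure D3:**
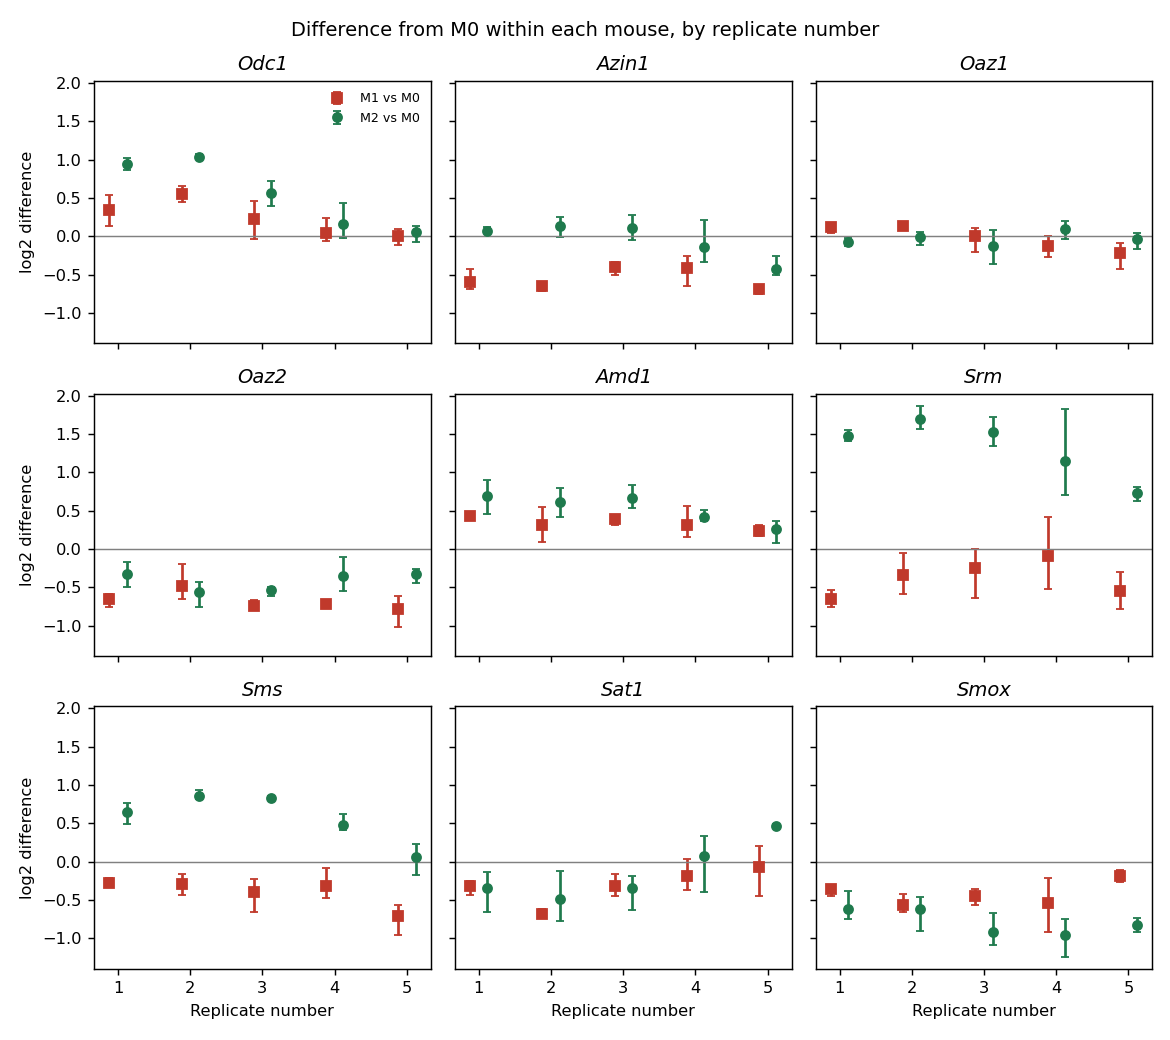
Log2 difference from M0 within a mouse (vertical axis) by replicate number (horizontal axis), for M1 (red squares) and M2 (green circles). Points are means of 3 mice, 1 of each genotype, and bars reach from the lowest to the highest mouse. The Odc1 and Sms differences in M2 are near 0 in number 5 (0.06 each), where Sat1 is at 0.47.

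Srm was higher in M2 in all 15 mice, with means from 0.73 in number 5 to 1.70 in number 2, and its variation with the number was not called (adjusted p = 0.061, edgeR). The M0 level also differed by number: Odc1 in M0 was 19.3 to 22.0 CPM in number 1 and 30.0 to 33.5 CPM in number 5. Replicate number carried 80.2%, 91.9% and 80.2% of the variance of Odc1 within groups in M0, M1 and M2, where the median gene tested had 66.0%, 59.2% and 54.3%. Other markers moved with the number as well. In M0, the neutrophil list summed to 134 to 204 CPM in number 2 and 19.4 to 29.5 CPM in number 5, and the dividing-cell list to 230 to 295 CPM and 381 to 493 CPM. The dividing-cell list in M1 was instead highest in number 2, at 342 to 405 CPM beside 139 to 234 CPM in the other numbers. In M1, the M1 marker list summed to 1647 to 2674 CPM in number 2, and to between 2043 and 7147 CPM in the other numbers. Their part in the differences was not tested.

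Between genotypes the members were not called. The question here was whether FAMIN variants with differing activity carry different levels of polyamine genes. None of the 9 passed in any of 13 comparisons by edgeR, DESeq2 or limma-voom, whether averaged over polarizations, within each of them, or as a change of the genotype difference from M0. Over all genes tested, 0.0155% were called for Famin p.284R and for Famin p.254V against Famin p.254I averaged, and 0% for Famin p.284R against Famin p.254V. Within a polarization, 0.263% were called for Famin p.284R against Famin p.254I in M1 and 0.00775% in M2, and 0% in the other within-polarization and interaction comparisons. At an unadjusted p under 0.05, edgeR gave 1 member, Amd1, in Famin p.254V against Famin p.254I averaged (2.50% of all genes) and in Famin p.284R against Famin p.254V averaged (4.70%), and 0 in Famin p.284R against Famin p.254I averaged (4.38%). Within polarizations it gave 0 members, beside 1.08%, 6.70% and 1.15% of all genes for Famin p.284R in M0, M1 and M2 and 1.79%, 0.930% and 2.55% for Famin p.254V. For the interactions it also gave 0, beside 2.76% (M1) and 0.542% (M2) for Famin p.284R and 0.860% and 1.29% for Famin p.254V. DESeq2 and limma-voom gave at most 1 member in any comparison at that threshold. Over all 371 alternative fits, which include blocks and left-out mice or numbers, the most was 3 members in a comparison, and none was called after adjustment.

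**Figure D4:**
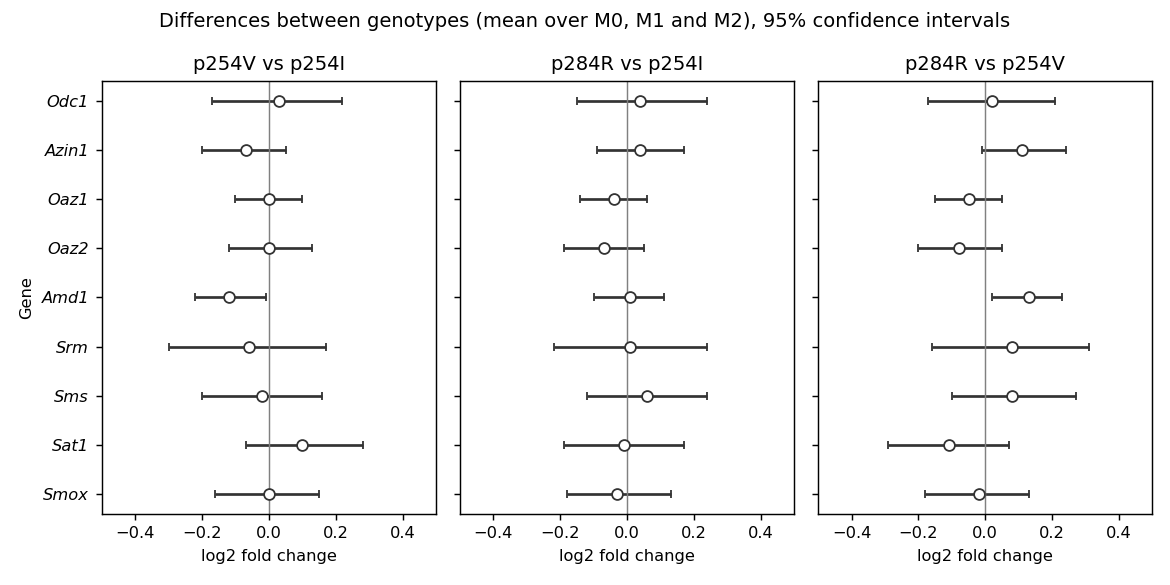
Log2 fold change between genotypes (horizontal axis), as the mean over M0, M1 and M2, with 95% confidence intervals. All points are open because none passed an adjusted p of 0.05, and the intervals lie within -0.30 to 0.31.

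The member nearest to a call was Amd1, which was -0.12 ± 0.05 in Famin p.254V against Famin p.254I (unadjusted p = 0.027, adjusted p = 1) and 0.13 ± 0.05 in Famin p.284R against Famin p.254V (0.019 and 0.95, edgeR). Its means ± SD in M2 were 8.45 ± 0.584 CPM (Famin p.254I), 7.48 ± 0.339 CPM (Famin p.254V) and 8.51 ± 1.22 CPM (Famin p.284R, n = 5 each), with overlapping ranges. Averaged over polarizations, the 95% intervals of all members lay between -0.30 and 0.31, both bounds set by Srm. Within a polarization the largest difference was for Sat1 in M2, 0.27 ± 0.15 in Famin p.254V against Famin p.254I (95% interval -0.04 to 0.58, adjusted p = 1). Odc1 differed by 0.04 (95% interval -0.15 to 0.24) in Famin p.284R and by 0.03 (-0.17 to 0.22) in Famin p.254V against Famin p.254I. A p that misses the threshold does not show that genotypes were alike. Replicate number was not a term in this fit, so its share of the variance stayed in the error. That can widen these intervals and raise the p-values. With replicate number as a block, 0 members were called as well.

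The rest of the pathway was read from a list of 27 genes of ornithine supply, methionine salvage, S-adenosylmethionine synthesis, hypusination, breakdown and transport, of which 21 were tested. In M2 against M0, 9 rose, 9 fell and 3 did not pass, where 76.4% of all genes tested were called (36.8% higher and 39.6% lower). In M1 against M0, 8 rose, 10 fell and 3 did not pass, where 77.3% were called (37.0% higher and 40.3% lower). Beside such shares, these counts say nothing particular about the listed genes. Between genotypes none was called in the averaged comparisons, and within a polarization 1 call was made, for Arg1 in M1, where Famin p.284R was lower against Famin p.254I (0.263% of all genes were called in that comparison). Arg1, which makes ornithine, went from a median of 0.276 CPM in M0 (0.0391 to 0.719) to 1030 CPM in M2 (705 to 1421), a log2 difference of 11.65 ± 0.54 (adjusted p = 1.2e-21, edgeR). In M1 its median was 0.653 CPM and 1 library, Famin p.254I replicate 5, reached 40.8 CPM. The log2 difference from M0 was 2.20 with that mouse and 0.95 without it (adjusted p = 0.0031 and 0.0018, edgeR). The genotype call within M1 also rested on it: the log2 difference was -3.69 ± 0.83 (adjusted p = 0.031, edgeR) with that mouse and -0.08 ± 0.42 (adjusted p = 1) without it. The other 4 Famin p.254I libraries, at 0.550 to 0.902 CPM, lay within the Famin p.284R range of 0.256 to 0.912 CPM. Arg2, the mitochondrial arginase, fell by 2.92 in M1 (adjusted p = 3.0e-10) and by 0.96 in M2 (0.002, edgeR), from a median of 1.00 CPM in M0. Agmat, Mat1a and Satl1 had a median of 0 CPM in every polarization.

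Hypusination genes split. Eif5a, the factor that receives hypusine, rose in M2 by 1.40 ± 0.06 (285 to 698 CPM as medians, adjusted p = 3.1e-22) and in M1 by 0.41 ± 0.06 (1.7e-07, edgeR). Dhps, which transfers the spermidine part, rose in M2 by 0.60 ± 0.06 (adjusted p = 3.8e-11) and fell in M1 by 0.31 ± 0.06 (2.9e-05, edgeR). Dohh, which completes hypusine, rose by 0.14 in M1 (adjusted p = 0.0025) and differed by 0.08 in M2 (0.084), and Eif5a2 fell in both. Of the 5 methionine salvage genes, which recover the methylthioadenosine left by Srm and Sms, 4 rose in M2 and 1, Adi1, fell. In M1, 3 rose and 2 did not pass. Against M0, 76.4% of all genes tested were called in M2 and 77.3% in M1, so these counts say little about salvage genes. Mtap, the first enzyme of that salvage, rose by 0.42 ± 0.07 in M2 (adjusted p = 1.9e-06) and differed by -0.15 in M1 (0.05, edgeR), and Mri1 rose by 0.83 in M2. Mat2a, which makes S-adenosylmethionine, rose by 0.57 ± 0.07 in M2 (adjusted p = 2.3e-09) and fell by 0.15 in M1 (0.048, edgeR).

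**Figure D5:**
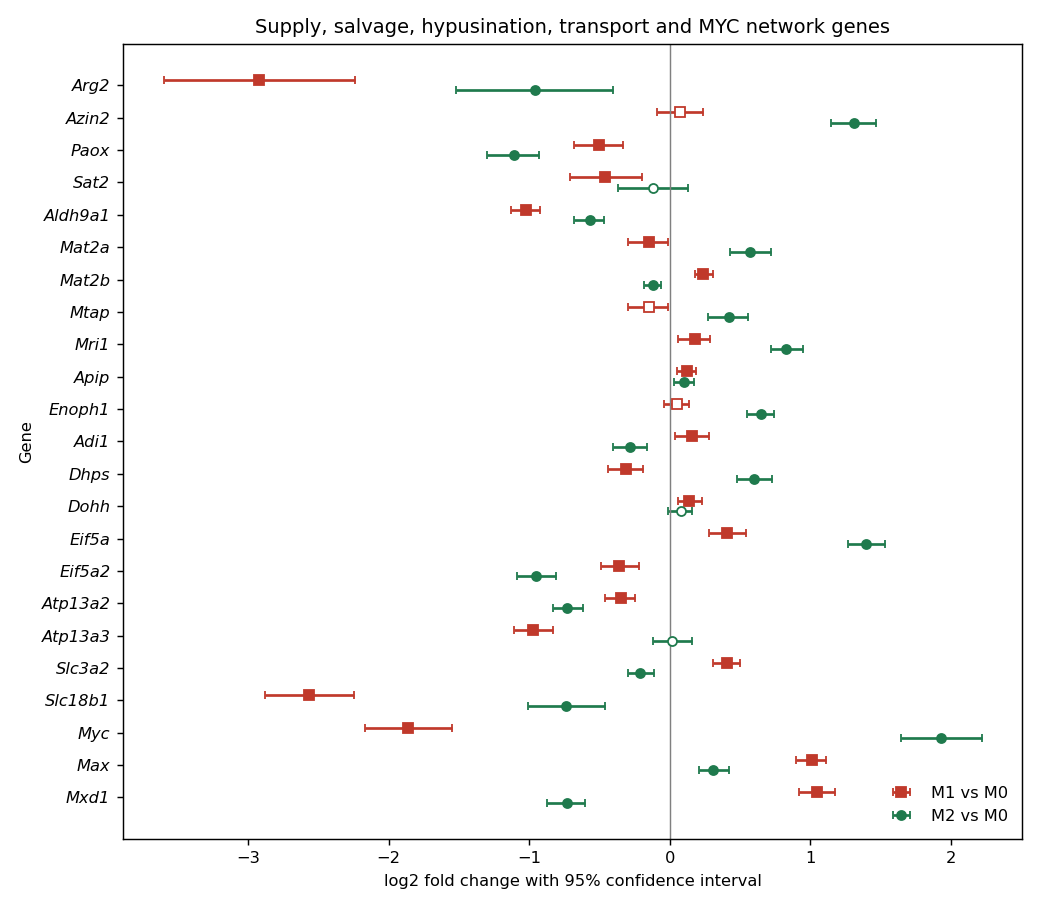
Log2 fold change against M0 (horizontal axis) of 20 further genes of the pathway and 3 of the MYC network in M1 (red squares) and M2 (green circles), with 95% confidence intervals. Filled marks passed an adjusted p of 0.05. Arg1, at 11.65 in M2, is left out for scale, and Eif5a and Azin2 show the highest of the other pathway values in M2, 1.40 and 1.31.

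Among other breakdown genes, Paox, which oxidizes acetylated polyamines, fell in M2 by 1.11 ± 0.09 (adjusted p = 2.6e-14) and in M1 by 0.50 ± 0.09 (2.3e-06, edgeR), in 15 of 15 mice each, as Smox did. Aldh9a1, an aldehyde dehydrogenase of polyamine breakdown, fell by 1.02 in M1 and 0.57 in M2. Azin2, a second antizyme inhibitor, rose by 1.31 ± 0.08 in M2 (adjusted p = 3.7e-18, edgeR), from a median of 4.29 to 10.7 CPM, whereas Azin1 was not called there. Slc18b1, a vesicular polyamine transporter, fell by 2.57 in M1 (adjusted p = 2.1e-18), from 2.18 to 0.356 CPM. Atp13a2, a lysosomal polyamine exporter, fell by 0.73 in M2, and Slc3a2, a heavy chain of amino acid transporters, rose by 0.41 in M1.

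Odc1 is a known target of the transcription factor MYC, so Myc, its partner Max and its competitor Mxd1 are given beside it. Myc ran from 9.50 to 31.8 CPM in M0 (median 15.6), from 2.59 to 7.65 CPM in M1 (4.59) and from 58.8 to 74.6 CPM in M2 (68.1), with no overlap between the 3. Among all genes tested, 28.6% did not overlap between M1 and M0, 23.4% between M2 and M0 and 35.7% between M1 and M2. Myc rose in M2 by 1.93 ± 0.14 (adjusted p = 1.9e-15) and fell in M1 by 1.86 ± 0.15 (3.6e-14, edgeR), in 15 of 15 mice each. Srm and Sms had the same directions as Myc in both comparisons, while Odc1 and Amd1 rose in M1, where Myc fell. The Odc1 rise in M1 was small (0.23), and its call was lost without certain mice or numbers, as given above. Amd1 shares 86.0% of its coding 50-base runs with other genes. Max rose by 1.01 in M1 and 0.31 in M2, and Mxd1 rose by 1.05 in M1 and fell by 0.73 in M2. By replicate number, the M2 difference of Myc was lowest in number 5, at 1.29. Its variation with the number was not called (adjusted p = 0.055, edgeR). Srm, Odc1, Sms, Amd1 and Azin1 also had their lowest M2 differences in number 5, where Sat1 had its highest. Oaz1, Oaz2 and Smox had their lowest in other numbers. The variation with the number was not called for Srm (adjusted p = 0.061) or Amd1 (0.14, edgeR). Differences within number 5 all use the same M0 libraries. How many of all genes had their lowest difference in number 5 was not counted. Myc in number 5 ran from 23.3 to 31.8 CPM in M0 and from 60.2 to 67.7 CPM in M2. The part of MYC in the differences of the members was not tested.

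Srm was the member with a log2 difference over 1, and the genes most like it over the 45 libraries were Gart, a purine synthesis enzyme (Pearson r = 0.980 of log2 CPM), Calu (0.980) and Ncbp1 (0.978). Gart had medians of 59.3, 50.3 and 81.0 CPM in M0, M1 and M2. These correlations are descriptions, and the 45 libraries share polarization and mice. After each group's mean was taken off, the deviations of Odc1 over the 45 libraries ran most closely with those of Sms (r = 0.79) and Srm (0.59) and opposite to those of Sat1 (-0.51), points that share replicate numbers and mice.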

How the data were processed

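Bone marrow-derived macrophages of 15 mice in M0, M1 and M2 gave 45 libraries. The authors deposited counts, whole reads per Ensembl gene without normalization, and a CPM table of 11900 genes, in which whole reads recovered (tolerance 0.01) equalled the counts for 100% of values. Per the labels, reads were trimmed with Trim Galore and aligned to mm10 with HISAT2, while the series description names Cutadapt and STAR. The counting tool, annotation and use of strand are not given in the sources used here. How reads with several matches were handled could alter Amd1, Odc1, Oaz1 and Sms. GENCODE vM21 named 29081 genes and gave coordinates.

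Counts were fitted in edgeR 4.0.16 (R 4.3.3): filterByExpr over 9 groups, TMM (factors 0.939 to 1.1), glmQLFit with robust dispersions, 9 group means, no block, Benjamini-Hochberg adjusted p under 0.05 over 12905 genes. Polarizations were averaged over genotypes. Total counts were 17239009 to 43740283 per library, and counting error is part of the model. The fits were also run on simulated counts with 200 genes changed. Those simulated libraries were independent, so they do not test p-values where libraries deviate together. Libraries with 1 replicate number deviated together over 8187 genes (r above 0.1 in 15 of 15 pairs between genotypes in M0 and in M1, and 13 of 15 in M2). The M0, M1 and M2 cultures of 1 title stem were taken as 1 mouse, which pairs them. Alternatives were DESeq2 1.42.0, its size factors, limma-voom 3.58.1, other filters, blocks and each mouse left out. Leaving out each replicate number and its interaction with polarization were added after seeing the data.

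Named are all 9 members, Myc, Max, Mxd1 and, of the wider list, Arg1, Arg2, Mat2a, Mtap, Dhps, Dohh, Eif5a, Paox and up to 3 with the largest fold in each direction. Adi1, Mri1, Atp13a2, Agmat, Mat1a and Satl1 were named after their values were seen. For each member with an absolute log2 fold change over 1 against M0, the 3 genes with the highest correlation were named. The members and lists were chosen with earlier results of these data known.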

Additional observations from a re-analysis of the deposited data

Results flagged for a closer look

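Odc1 in the M2 library of Famin p.254V replicate 2 had 51.7 CPM, while the other 4 libraries of its group lay between 31.8 and 36.2 CPM, so its gap to the nearest was 0.779 of the group's range. Chance alone sets apart about 1 in 20 groups of 5, and this was the 1 case among 81 groups (9 genes in 9 groups). The M2 libraries of replicate number 2 in the other genotypes were also the highest of their groups, at 52.8 and 55.6 CPM.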

How the results depend on the processing

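The counts of members called in all 16 comparisons, and of wider-list genes called between polarizations and in the averaged genotype comparisons, kept within 1.5 times of the main count under every alternative run. The wider-list call of Arg1 for Famin p.284R against Famin p.254I in M1 (-3.69) was lost with limma-voom (-1.09, adjusted p = 0.94), the replicate block (-3.14, 0.11), no filter on low counts (-3.69, 0.078) and only the libraries compared (-3.74, 0.81), and in 10 of 15 fits without 1 mouse; the difference was -0.08 without Famin p.254I replicate 5 and -4.02 to -3.50 without any other mouse. Without 1 mouse or 1 replicate number, 7 to 8 members were called for M1 against M0, 6 to 7 for M2 against M0 and 7 to 8 for M1 against M2, and 0 between genotypes. With the mouse as a replicate block the polarization counts were 8, 6 and 8, and blocking on replicate number left the genotype counts at 0, so the pairing changed no call of a member. Calls of Odc1 (M1 against M0) and Sat1 (M1 against M2) were lost as given in the results, and the cause was not tested. Other tools, scalings, filters and blocks moved no polarization difference of a member by more than 0.03 (log2), 1 mouse left out by no more than 0.08, and 1 replicate number by no more than 0.17 (Srm in M2 against M0, 1.48 without number 5).

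Sign changes were found only in differences that were not called. Without 1 mouse or number, Oaz1 ran from -0.04 to 0.04 (M1 against M0) and from -0.02 to 0.08 (M1 against M2), and Azin1 from -0.10 to 0.06 (M2 against M0). For Famin p.284R against Famin p.254I, Odc1 ran from -0.02 to 0.11, Amd1 from -0.01 to 0.03, Srm from -0.07 to 0.08, Sms from -0.01 to 0.14, Sat1 from -0.07 to 0.04 and Smox from -0.08 to 0.03. For Famin p.254V against Famin p.254I, Odc1 ran from -0.04 to 0.09, Oaz1 from -0.04 to 0.04, Oaz2 from -0.03 to 0.05, Srm from -0.15 to 0.02, Sms from -0.07 to 0.06 and Smox from -0.05 to 0.05. For Famin p.284R against Famin p.254V, Odc1 ran from -0.05 to 0.08, Srm from -0.00 to 0.16 and Smox from -0.08 to 0.03. Counts summed per mouse gave -0.00 for Amd1 and 0.03 for Sat1 (Famin p.284R against Famin p.254I) and 0.03 for Smox (Famin p.254V), and no filter on low counts gave -0.00 for Oaz1 and for Oaz2 (Famin p.254V). Amd1, at 4.63 to 9.87 CPM, rests on the fewest reads.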
